A study of Homo sapiens with 24 samples.

Results

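The BCL2 family apoptosis genes described here are 10 of the 13033 gene symbols in the deposited expression table, and they were found in it by symbol. They fall into 3 roles: the BH3-only genes BMF, BBC3, BCL2L11, PMAIP1 and BIK (5 genes), the effector BAX (1 gene), and the anti-apoptotic genes BCL2, BCL2L1, MCL1 and BCL2A1 (4 genes). RNA was sequenced from 2 human acute myeloid leukaemia lines after exposure to RMC-7977, an inhibitor that binds RAS proteins in their active, GTP-loaded state. The groups were OCI-AML3 (labelled NRAS Q61L) with RMC-7977 at 25 nM for 2 h (n = 4) or 24 h (n = 3) or with DMSO, the solvent (n = 4), and Molm-14 (labelled FLT3-ITD) with RMC-7977 at 25 nM for 2 h or 24 h or with DMSO (n = 4 each). The fourth library labelled OCI-AML3 at 24 h, replicate 3, was not analysed here. Each line had 1 DMSO group, for which the labels give no time, so both drug times share the same DMSO libraries. The design text of the series speaks of DMSO at both times, and which time these libraries come from is not labelled, so a difference from DMSO at 2 h or 24 h may not be matched in time. Every library carries the same batch label, and the cells are established lines. The labels do not say whether the libraries of a group are separate cultures, and p-values therefore cover the variation among these libraries alone, which may be technical.

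The BCL2 family sets the threshold for the mitochondrial route to cell death. The anti-apoptotic proteins hold the effectors BAX and BAK1 in check at the outer mitochondrial membrane, and the BH3-only proteins occupy the groove of the anti-apoptotic proteins or activate the effectors directly. Active effectors open the membrane and release cytochrome c, which starts the caspases. In myeloid leukaemia the family is known as a drug target, since BCL2 inhibitors are in clinical use there, and MCL1 and BCL2A1 are known for lowering sensitivity to them. ERK signalling is known to mark BCL2L11 protein, called BIM, for destruction and to stabilise MCL1 protein, and neither effect can be read from RNA.

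RefSeq promoter windows (GRCh38.p14) were matched by symbol for 8 of the 10 genes, in 10 windows. The stretches shown belong to BMF, BBC3 and BCL2L11, BH3-only genes called higher against DMSO in at least 1 comparison. The last belongs to PMAIP1, the only BH3-only gene called lower against DMSO. BIK was called higher too, but neither it nor MCL1 had a matched window. The stretches lie upstream of a RefSeq transcript start, which for BCL2L11 is inside the GENCODE gene span given with its values. They leave out bases in annotated exons, except for 13 bases at the end of the BMF window. These 13 exon bases include the last letters of the motif match marked in BMF, which lies 20 to 11 bases upstream of the start. Capitals mark motif matches on either strand. These are the kappaB consensus in BMF (chr15:40108880-40109129, minus strand), an E-box (CACGTG) and then an AP-1 motif (TGANTCA) in BBC3 (chr19:47232767-47232917, minus strand), a FOXO motif (TGTTTAC, here as its reverse complement) in BCL2L11 (chr2:111120664-111120913, plus strand), and a CRE core (TGACGT, here as its reverse complement) in PMAIP1 (chr18:59899746-59899947, plus strand).
BMF: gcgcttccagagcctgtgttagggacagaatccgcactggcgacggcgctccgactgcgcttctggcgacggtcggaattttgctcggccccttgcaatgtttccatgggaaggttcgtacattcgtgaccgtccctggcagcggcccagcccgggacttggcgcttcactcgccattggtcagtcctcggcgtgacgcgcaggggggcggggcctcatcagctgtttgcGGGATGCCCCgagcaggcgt
BBC3: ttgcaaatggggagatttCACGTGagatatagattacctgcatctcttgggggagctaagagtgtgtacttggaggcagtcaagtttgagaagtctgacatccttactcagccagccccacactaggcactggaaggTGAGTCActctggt
BCL2L11: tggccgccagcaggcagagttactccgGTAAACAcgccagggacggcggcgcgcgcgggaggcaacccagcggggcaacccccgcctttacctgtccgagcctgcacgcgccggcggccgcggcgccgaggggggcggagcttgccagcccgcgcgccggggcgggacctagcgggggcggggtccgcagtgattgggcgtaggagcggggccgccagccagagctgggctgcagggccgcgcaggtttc
PMAIP1: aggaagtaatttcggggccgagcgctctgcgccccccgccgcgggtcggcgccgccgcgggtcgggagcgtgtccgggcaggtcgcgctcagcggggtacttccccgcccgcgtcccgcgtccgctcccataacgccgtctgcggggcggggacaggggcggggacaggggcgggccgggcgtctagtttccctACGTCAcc
Over the 250 bases upstream of 35116 RefSeq starts, 9.96% held the kappaB consensus, 6.34% the E-box, 6.57% the AP-1 motif, 2.98% the FOXO motif and 7.10% the CRE core. The sixth motif searched, the ETS core CCGGAA, was in 14.5% of all windows and in no window of the family. BAX held 4 E-boxes within the 250 bases, and no motif was found in the windows of BCL2, BCL2L1 or BCL2A1 or in the other window of BMF. The matches did not overlap one another. A match describes these letters only and shows no binding.

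Effective library depth, the divisor that turns reads into CPM, was recovered from the spacing of low values. It ran from 15.4 to 22.4 M (mega) reads and may differ from the number of reads sequenced. No library stood apart from its group. All 7 myeloid markers were in the table, whereas 1 of 6 lymphoid, 1 of 5 erythroid and platelet and 3 of 6 epithelial and stromal markers were. As a check of the drug, 11 of 13 ERK output genes fell at 2 h and 13 at 24 h in OCI-AML3 (3.35% and 17.1% of all genes). In Molm-14, 13 fell at 2 h and 6 at 24 h (2.98% and 6.57% of all genes). Between 2 h and 24 h, 10 of the 13 rose and 1 fell in Molm-14 (7.25% and 3.38% of all genes). In OCI-AML3, 1 rose and 3 fell between the times (11.6% and 10.9% of all genes). The summed level of 8 monocyte maturation markers ran from 410.6 to 429.1 CPM at 24 h, against 111.1 to 119.1 CPM with DMSO in OCI-AML3. It ran from 398.6 to 416.3 CPM at 24 h, against 48.8 to 54.5 CPM with DMSO, in Molm-14. Of the 8, 5 were called higher at 24 h in each line (18.4% of all genes in OCI-AML3 and 11.4% in Molm-14). CD14 was among those called lower in OCI-AML3. The single erythroid and platelet marker in the table, ITGA2B, rose at 24 h in both lines, to 10.18 to 12.8 CPM in OCI-AML3, against 1.19 to 2.15 CPM with DMSO. Its levels were 0.949 to 1.44 CPM at 24 h in Molm-14, against 0 to 0.310 CPM with DMSO. PECAM1, listed with the epithelial and stromal markers, averaged 73.6 CPM at 24 h and 32.5 CPM with DMSO in OCI-AML3, where it rose by 1.18. In Molm-14 it averaged 163.9 CPM at 2 h and 81.7 CPM with DMSO, and it rose by 1.00. The level of PECAM1 alone does not name a cell type. COL1A2, a stromal collagen, rose in OCI-AML3 at 24 h, to 4.25 CPM, against 1.73 CPM with DMSO. PAX5, a B cell factor, fell in Molm-14 at 24 h, to 8.37 CPM, against 19.9 CPM with DMSO. The summed level of the 7 myeloid markers had a median of 6894 CPM at 24 h and 2279 CPM with DMSO in OCI-AML3, and of 1737 CPM and 1166 CPM in Molm-14. LYZ weighed most in the OCI-AML3 sum at 24 h, averaging 3792 CPM, against 573.8 CPM with DMSO. Of the 7, 3 were called higher at 24 h in OCI-AML3 (18.4% of all genes). In Molm-14, 2 were called higher and 1 lower (11.4% and 6.57% of all genes). MPO averaged 0.604 CPM at 24 h and 2.83 CPM with DMSO in Molm-14. The part of these markers in the 24 h results was not tested. Levels are given as CPM, the reads of a gene divided by the effective depth of its library in M reads. The CPM of a library do not add up to a fixed total. Their sum ran from 0.9145 to 1.058 M over the libraries. It was 1.054 M in OCI-AML3 DMSO replicate 3 and 0.9145 M in OCI-AML3 24 h replicate 2. Differences are log2 differences ± SE on the deposited log2 scale. The built-in prior of 0.105 CPM of that scale makes the changes of low genes look smaller than they are. A gene rose or fell where limma's adjusted p was below 0.05 and the log2 difference was at least 1 in size. Bulk RNA cannot tell fewer cells of a kind from less RNA per cell.

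BMF, whose protein binds the anti-apoptotic members and is kept on the cytoskeleton in resting cells, rose in both lines at both times. In OCI-AML3 it was at 6.34, 4.91, 4.87 and 5.10 CPM with DMSO, at 57.5, 59.8, 58.0 and 61.0 CPM at 2 h, and at 128.0, 125.1 and 126.4 CPM at 24 h. In Molm-14 it was at 14.1, 16.03, 15.2 and 13.1 CPM with DMSO, at 83.7, 81.6, 78.0 and 82.5 CPM at 2 h, and at 167.2, 172.0, 176.1 and 164.0 CPM at 24 h. The 6 groups did not overlap anywhere, and within each line the order was DMSO, 2 h, 24 h. Against DMSO the log2 difference in OCI-AML3 was 3.46 ± 0.06 at 2 h (limma adjusted p = 5.6e-27) and 4.56 ± 0.07 at 24 h (limma adjusted p = 1.4e-30), which is 11.01-fold and 23.5-fold. In Molm-14 it was 2.48 ± 0.06 at 2 h (limma adjusted p = 7.4e-24) and 3.53 ± 0.06 at 24 h (limma adjusted p = 6.1e-28), which is 5.56-fold and 11.6-fold. Among all 13033 genes, BMF held rank 4 from the top at 2 h and rank 32 at 24 h in OCI-AML3, and rank 45 at 2 h and rank 54 at 24 h in Molm-14. It also rose between 2 h and 24 h, by 1.10 ± 0.07 in OCI-AML3 (limma adjusted p = 5.3e-15) and by 1.06 ± 0.06 in Molm-14 (limma adjusted p = 3.6e-15).

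**Figure D1:**
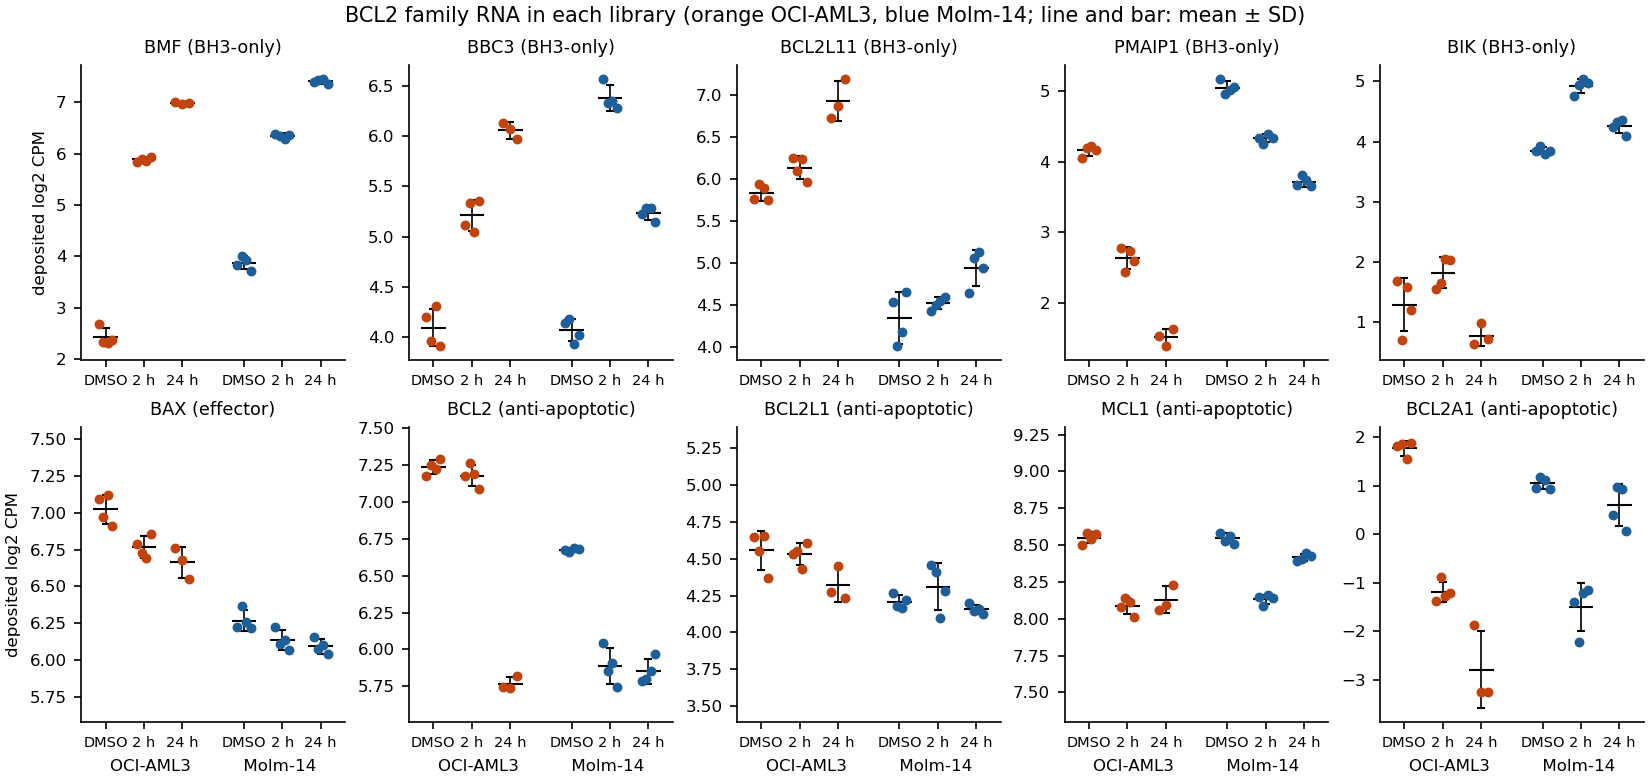
Each panel shows 1 gene, with the deposited log2 CPM of every library on the vertical axis and the DMSO, 2 h and 24 h groups of OCI-AML3 (orange, left) and Molm-14 (blue, right) on the horizontal axis; black lines and bars give the mean ± SD, and each panel has its own vertical range. BMF climbs in both lines, PMAIP1 descends in both lines, BBC3 peaks at 2 h in Molm-14 and at 24 h in OCI-AML3, and BCL2A1 is back near its DMSO level at 24 h in Molm-14 only.

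BBC3, which encodes PUMA and is a classical p53 target, also rose in every comparison with DMSO, with opposite timing in the 2 lines. In OCI-AML3 it was at 18.3, 15.5, 19.7 and 15.0 CPM with DMSO, at 34.6, 40.2, 32.9 and 40.7 CPM at 2 h, and at 69.8, 67.2 and 62.4 CPM at 24 h. The Molm-14 libraries were at 17.6, 18.1, 15.2 and 16.2 CPM with DMSO, at 94.8, 80.4, 81.5 and 77.4 CPM at 2 h, and at 37.2, 38.9, 38.9 and 35.2 CPM at 24 h. The DMSO libraries of both lines overlapped, the highest group was Molm-14 at 2 h, and OCI-AML3 at 2 h overlapped Molm-14 at 24 h. The log2 difference from DMSO was 1.11 ± 0.08 at 2 h and 1.96 ± 0.09 at 24 h in OCI-AML3 (limma adjusted p = 6.0e-13 and 6.2e-19), and 2.31 ± 0.08 at 2 h and 1.16 ± 0.08 at 24 h in Molm-14 (limma adjusted p = 1.4e-20 and 6.3e-14). Between 2 h and 24 h it fell by 1.15 ± 0.08 in Molm-14 (limma adjusted p = 1.5e-13), and in OCI-AML3 the difference of 0.84 ± 0.09 stayed under the size threshold (limma adjusted p = 5.0e-10).

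BCL2L11, which encodes BIM, lay higher in every OCI-AML3 library than in any Molm-14 library. In OCI-AML3 it was at 54.2, 61.1, 59.2 and 53.5 CPM with DMSO, at 76.0, 68.1, 75.5 and 62.2 CPM at 2 h, and at 105.7, 117.0 and 146.9 CPM at 24 h. In Molm-14 it was at 23.1, 15.9, 17.9 and 25.1 CPM with DMSO, at 21.4, 22.5, 23.3 and 24.0 CPM at 2 h, and at 24.8, 33.2, 34.9 and 30.6 CPM at 24 h. It rose against DMSO in OCI-AML3 at 24 h only, by 1.10 ± 0.14 (limma adjusted p = 3.6e-07), and the call rests on replicate 4, since the difference was 0.97 without it. The other differences from DMSO were 0.30 ± 0.13 in OCI-AML3 at 2 h (limma adjusted p = 0.050), 0.17 ± 0.13 in Molm-14 at 2 h (limma adjusted p = 0.27) and 0.60 ± 0.13 in Molm-14 at 24 h (limma adjusted p = 0.00031). BCL2L11 (chr2:111119378-111168447, plus strand, GRCh38, 14 coding transcripts) shares 727 of its 6093 exon bases with MIR4435-2HG on the other strand. The strand setting of the counting is not given in the sources used here, so reads from these bases cannot be assigned to 1 gene. MIR4435-2HG averaged 41.7 ± 0.64 CPM in OCI-AML3 at 24 h (SD, n = 3) and 31.5 ± 1.18 CPM with DMSO (SD, n = 4), a log2 difference of 0.40, and its part in the BCL2L11 result was not tested.

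PMAIP1, which encodes NOXA, a BH3-only protein known for binding MCL1, went the other way from BMF and BBC3. In OCI-AML3 it was at 16.5, 18.3, 18.6 and 17.9 CPM with DMSO, at 6.80, 5.34, 6.57 and 5.91 CPM at 2 h, and at 2.80, 2.51 and 2.98 CPM at 24 h. The Molm-14 libraries were at 36.1, 31.2, 32.2 and 33.1 CPM with DMSO, at 20.2, 19.0, 21.0 and 20.1 CPM at 2 h, and at 12.6, 13.9, 13.2 and 12.5 CPM at 24 h. No 2 of the 6 groups overlapped, and within each line the order was the reverse of that of BMF. In OCI-AML3 PMAIP1 fell by 1.52 ± 0.08 at 2 h and by 2.65 ± 0.09 at 24 h against DMSO (limma adjusted p = 2.4e-16 and 1.4e-22), which is 2.88-fold and 6.26-fold lower, and it fell by a further 1.12 ± 0.09 between the times (limma adjusted p = 5.2e-13). In Molm-14 it fell at 24 h, by 1.33 ± 0.08 (limma adjusted p = 1.3e-15), while the 2 h difference was -0.72 ± 0.08 (limma adjusted p = 4.1e-09) and under the size threshold.

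BIK, a BH3-only protein of the endoplasmic reticulum, was the BH3-only gene with the widest gap between the lines. It lay between 1.45 and 4.02 CPM in all 11 OCI-AML3 libraries and between 13.8 and 32.8 CPM in all 12 Molm-14 libraries. In Molm-14 it was at 14.2, 15.2, 13.8 and 14.3 CPM with DMSO, at 27.0, 30.5, 32.8 and 31.1 CPM at 2 h, and at 18.8, 19.97, 20.4 and 16.9 CPM at 24 h. The 3 groups of Molm-14 did not overlap, and the 2 h group was the highest. BIK rose in Molm-14 at 2 h by 1.07 ± 0.15 (limma adjusted p = 2.6e-07), and at 24 h it was 0.40 ± 0.15 from DMSO (limma adjusted p = 0.015). In OCI-AML3 it averaged 2.43 ± 0.72 CPM with DMSO, 3.48 ± 0.63 CPM at 2 h and 1.62 ± 0.22 CPM at 24 h (SD, n = 4, 4 and 3). There it fell between 2 h and 24 h by 1.04 ± 0.16 (limma adjusted p = 8.5e-07), a value so near the size threshold that leaving out OCI-AML3 2 h replicate 3 or 4 or 24 h replicate 1 moved it to -0.97, and the differences from DMSO were 0.53 at 2 h and -0.51 at 24 h.

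BAX, the effector that forms pores in the outer mitochondrial membrane, moved little. It averaged 130.1 ± 9.04 CPM with DMSO, 108.9 ± 5.45 CPM at 2 h and then 101.3 ± 7.42 CPM at 24 h, in OCI-AML3 libraries (SD, n = 4, 4 and 3). In Molm-14 it averaged 76.9 ± 3.85, 70.2 ± 3.26 and 68.2 ± 2.46 CPM in the same order (SD, n = 4 each). The drug groups of each line overlapped one another, and the differences from DMSO, -0.26 ± 0.05 and -0.36 ± 0.06 in OCI-AML3 and -0.13 ± 0.05 and -0.17 ± 0.05 in Molm-14, were all below the size threshold. BAX is 1.41 kb in merged exon length, and it and MCL1 held the top 2 places of the family in every group when CPM was divided by that length.

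BCL2, the target of venetoclax, differed between the lines in when it was lower. In OCI-AML3 it was at 144.8, 152.3, 149.3 and 156.8 CPM with DMSO, at 144.4, 153.6, 145.8 and 136.0 CPM at 2 h, and at 53.4, 53.4 and 56.4 CPM at 24 h. The Molm-14 libraries were at 102.2, 101.2, 102.9 and 102.3 CPM with DMSO, at 65.8, 57.6, 60.0 and 53.4 CPM at 2 h, and at 55.0, 55.6, 57.7 and 62.6 CPM at 24 h. At 2 h the OCI-AML3 libraries still overlapped DMSO, whereas all Molm-14 libraries lay below their DMSO libraries. At 24 h the 2 lines overlapped. BCL2 fell in OCI-AML3 at 24 h, by 1.47 ± 0.06 against DMSO (limma adjusted p = 8.5e-21) and by 1.41 ± 0.06 against 2 h (limma adjusted p = 4.7e-20). Its other differences from DMSO were -0.06 ± 0.05 in OCI-AML3 at 2 h (limma adjusted p = 0.34), and -0.79 ± 0.05 and -0.82 ± 0.05 in Molm-14 at 2 h and 24 h (limma adjusted p = 4.0e-14 and 4.7e-15), both under the size threshold.

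MCL1, a short-lived protein that binds BIM, NOXA and BAK1, was lower after drug in both lines, by less than the size threshold. It averaged 374.6 ± 9.60 CPM with DMSO, 271.9 ± 10.5 CPM at 2 h and then 280.3 ± 17.9 CPM at 24 h, in OCI-AML3 libraries (SD, n = 4, 4 and 3), and 373.7 ± 8.68, 280.7 ± 5.82 and 341.7 ± 5.64 CPM in the same order in Molm-14 (SD, n = 4 each). In both lines every drug library lay below every DMSO library. The differences from DMSO were -0.46 ± 0.04 and -0.42 ± 0.04 in OCI-AML3 and -0.41 ± 0.04 and -0.13 ± 0.04 in Molm-14, at 2 h and 24 h, and none reached the size threshold. BCL2L1, which encodes BCL-XL, lay between 16.98 and 25.1 CPM in all 23 libraries, and its differences from DMSO lay between -0.24 ± 0.08 (OCI-AML3 at 24 h, limma adjusted p = 0.0075) and 0.10 ± 0.07 (Molm-14 at 2 h, limma adjusted p = 0.24).

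BCL2A1, which encodes BFL-1 and is a known target of NF-kB, was at a few CPM or less in every library and had the largest falls of the family. In OCI-AML3 it was at 3.42, 3.52, 2.81 and 3.56 CPM with DMSO, at 0.279, 0.436, 0.308 and 0.325 CPM at 2 h, and at 0.167, 0 and 0 CPM at 24 h. In Molm-14 it was at 1.84, 2.15, 2.08 and 1.80 CPM with DMSO, at 0.274, 0.110, 0.324 and 0.345 CPM at 2 h, and at 1.22, 1.87, 1.80 and 0.949 CPM at 24 h. All drug libraries of OCI-AML3 lay below DMSO at both times, whereas the 24 h libraries of Molm-14 overlapped DMSO. At 2 h it fell by 2.96 ± 0.28 in OCI-AML3 (limma adjusted p = 2.0e-10) and by 2.55 ± 0.28 in Molm-14 (limma adjusted p = 4.4e-09). At 24 h the OCI-AML3 libraries held 3 reads in all, against 266 in DMSO, which relative to depth is 60.3 times lower with an exact 95% interval of 20.4 to 294 that covers counting error only. In Molm-14 BCL2A1 rose between 2 h and 24 h by 2.10 ± 0.28 (limma adjusted p = 1.2e-07), and at 24 h its difference from DMSO was -0.45 ± 0.28 (limma adjusted p = 0.15).

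Counted over the family, 3 genes rose and 3 fell in OCI-AML3 at 24 h against DMSO, where 35.4% of all 13033 genes were called, and 2 rose and 2 fell at 2 h, where 6.58% were called. In Molm-14, 3 rose and 1 fell at 2 h, where 7.29% were called, and 2 rose and 1 fell at 24 h, where 17.9% were called. The share of members called was above that of all genes in each comparison. The members were chosen with earlier results of these data known, so this share cannot be read as a result about the family. The medians over the 10 members, -0.04 and -0.39 in OCI-AML3 at 2 h and 24 h and -0.01 and -0.09 in Molm-14, lay near or below the median of all genes (0.02, 0.01, 0.00 and 0.00). Split by role, the BH3-only genes counted 2 rises and 1 fall at 2 h and 3 rises and 1 fall at 24 h in OCI-AML3, and 3 rises at 2 h and then 2 rises and 1 fall at 24 h in Molm-14. Of the 4 anti-apoptotic genes, 1 fell at 2 h and 2 fell at 24 h in OCI-AML3, and 1 fell at 2 h in Molm-14. The single positive difference among them was that of BCL2L1 in Molm-14 at 2 h. BMF and BBC3 rose in both lines at both times. BCL2A1 fell in both lines at 2 h and PMAIP1 in both at 24 h, and no member was called in opposite directions in the 2 lines. The shares of all genes called higher and called lower were 3.23% and 3.35% at 2 h and 18.4% and 17.1% at 24 h in OCI-AML3, and 4.3% and 2.98% at 2 h and 11.4% and 6.57% at 24 h in Molm-14. With no minimum difference, 8 members at 2 h and 10 at 24 h passed limma's adjusted p in OCI-AML3 (62.2% and 84.4% of all genes), and 8 at each time in Molm-14 (59.5% and 76.3%). The libraries of 7 members did not overlap DMSO in OCI-AML3 at 2 h and those of 8 at 24 h (54.4% and 82.3% of all genes), and in Molm-14 those of 7 members at each time (53.6% and 71.3% of all genes).

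**Figure D2:**
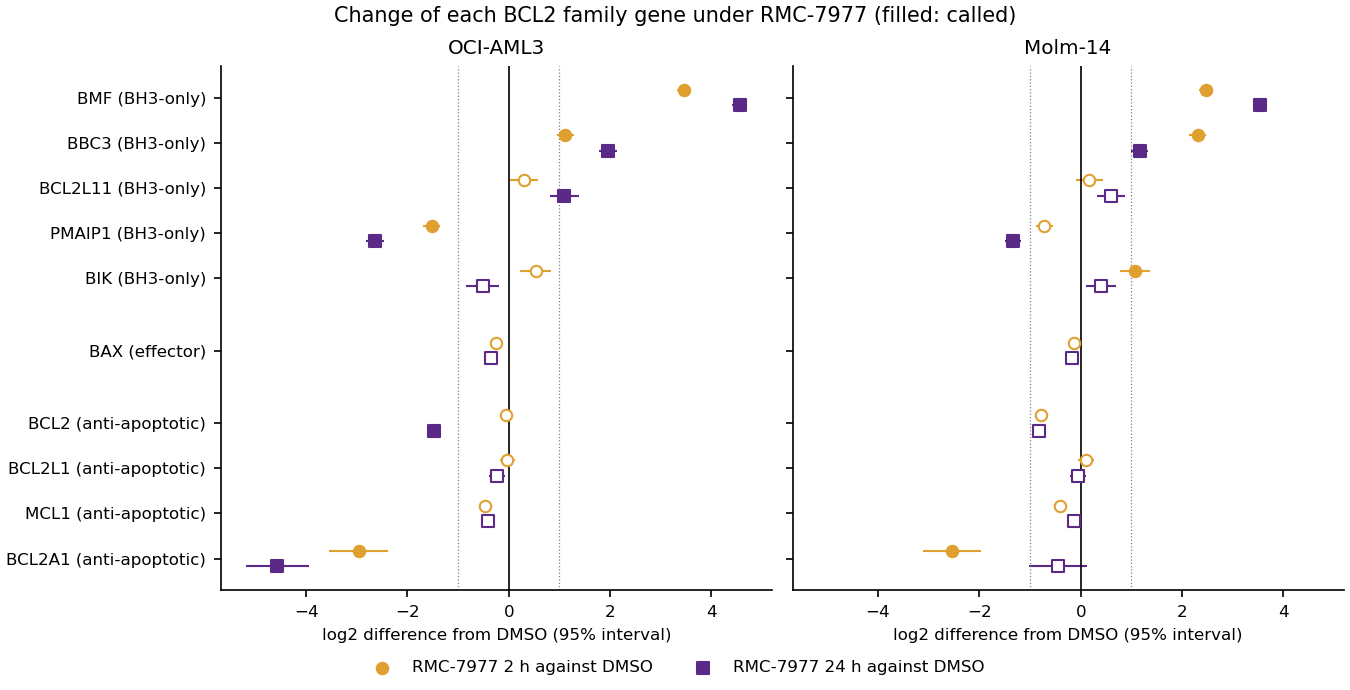
The horizontal axis gives the log2 difference from DMSO with its 95% interval for each gene, in OCI-AML3 (left) and Molm-14 (right), at 2 h (circles) and 24 h (squares); filled symbols were called and dotted lines mark a difference of 1. BMF reaches 4.56 and BCL2A1 -4.57 in OCI-AML3 at 24 h, while BAX, BCL2L1 and MCL1 stay within 0.46 of 0 in all 4 comparisons.

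BH3-only genes were set against the anti-apoptotic ones as the mean log2 change of the 5 genes minus that of the 4, each from the DMSO mean of the same line. This difference was 1.65 ± 0.12 at 2 h and 2.56 ± 0.21 at 24 h in OCI-AML3 (SD, n = 4 and 3), and 1.97 ± 0.11 at 2 h and 1.24 ± 0.02 at 24 h in Molm-14 (SD, n = 4 each). In DMSO the libraries spread by 0.15 (SD) in OCI-AML3 and by 0.07 in Molm-14 around 0, and every drug library lay above every DMSO library of its line. The 2 lines thus differed in order, with the higher value at 24 h in OCI-AML3 and at 2 h in Molm-14. The BH3-only side was similar in all 4 drug groups, at 0.78 and 0.89 in OCI-AML3 and at 1.06 and 0.87 in Molm-14. The anti-apoptotic side was -0.88 and -1.67 in OCI-AML3 and -0.91 and -0.36 in Molm-14. A few genes carried these means. Leaving out BCL2A1 brought the value down to 0.96 at 2 h and 1.60 at 24 h in OCI-AML3 and to 1.43 and 1.21 in Molm-14. Without BMF it was 0.98 at 2 h and 1.65 at 24 h in OCI-AML3, and 1.62 and 0.57 in Molm-14. Leaving out PMAIP1 gave between 1.79 and 3.45 in the 4 groups. No p is given for this score because its genes were chosen with earlier results known.

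**Figure D3:**
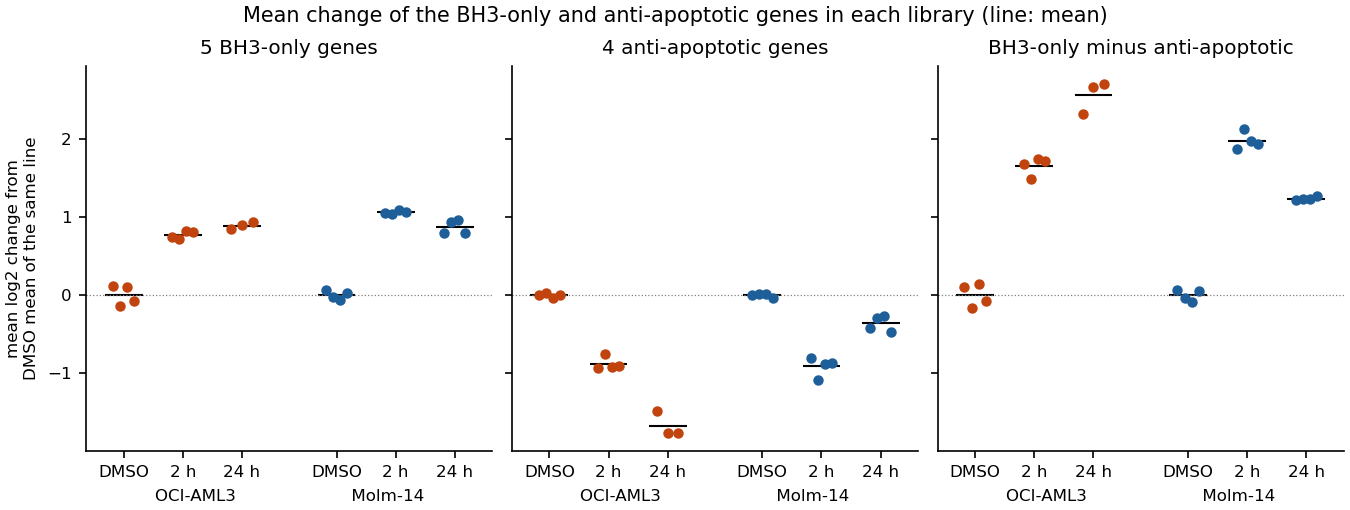
Each point is a library, with the mean log2 change from the DMSO mean of its line on the vertical axis, for the BH3-only genes (left), the anti-apoptotic genes (middle) and their difference (right); OCI-AML3 is orange and stands left of Molm-14 in blue, and black lines are means. The difference reads 1.65 and 2.56 at 2 h and 24 h in OCI-AML3 and 1.97 and 1.24 in Molm-14. At 24 h the lines stand further apart in the anti-apoptotic panel than in the BH3-only panel, and without BCL2A1, which has 3 reads in OCI-AML3 at 24 h, the difference is 1.60 in OCI-AML3 and 1.21 in Molm-14.

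The responses of the lines were compared directly as the change in OCI-AML3 minus the change in Molm-14. At 2 h, 1 of the 10 members differed, against 5.64% of all genes called. This was BBC3, whose response was lower in OCI-AML3 by 1.20 ± 0.11 on the log2 scale (limma adjusted p = 9.1e-10). At 24 h 3 members differed, against 17.8% of all genes called. BMF had the higher response in OCI-AML3, by 1.02 ± 0.09 (limma adjusted p = 9.4e-11), and it stood at 0.99 ± 0.09 at 2 h (limma adjusted p = 3.7e-10), so the 2 times lie on either side of the size threshold with nearly the same value. At 24 h it was 0.98 to 0.99 without Molm-14 DMSO replicate 2 or OCI-AML3 DMSO replicate 2 or 3. At 2 h it was 1.00 to 1.07 without Molm-14 DMSO replicate 1 or 4 or OCI-AML3 DMSO replicate 1, which makes 2 members called at 2 h. PMAIP1 and BCL2A1 had the lower response in OCI-AML3 at 24 h, with differences of -1.31 ± 0.12 (limma adjusted p = 4.5e-11) and -4.12 ± 0.41 (limma adjusted p = 6.4e-10), the second resting on the 3 reads of BCL2A1 given above. BCL2 changed sides without a call, with 0.73 ± 0.07 at 2 h and -0.65 ± 0.08 at 24 h (limma adjusted p = 2.1e-09 and 1.5e-08). For BAX, BCL2L1 and MCL1 the 95% intervals of the difference lay within -0.41 and 0.08 at both times.

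**Figure D4:**
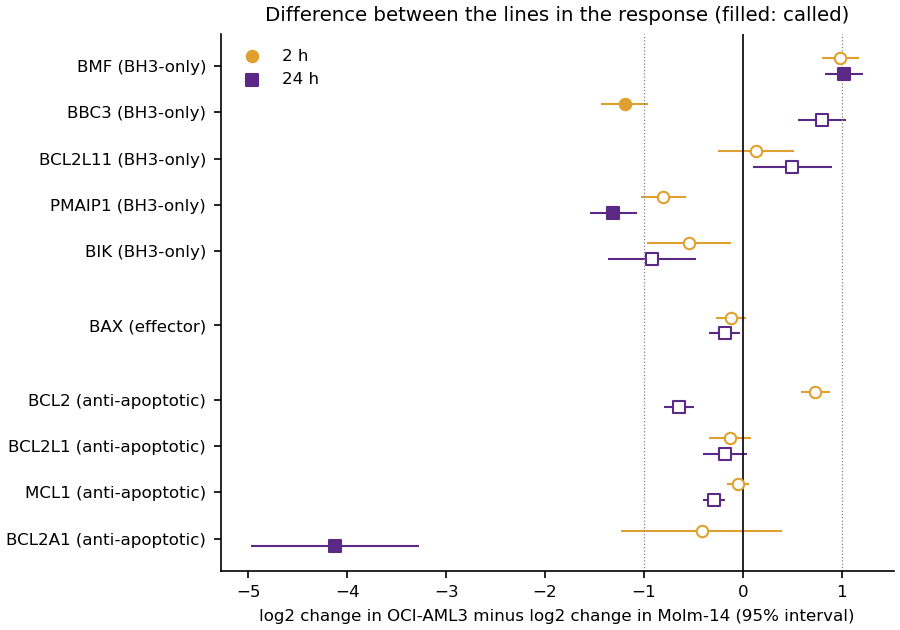
The horizontal axis gives the log2 change in OCI-AML3 minus the log2 change in Molm-14 with its 95% interval, at 2 h (circles) and 24 h (squares), with dotted lines at a difference of 1 and filled symbols for called genes. BBC3 lies at -1.20 at 2 h and at 0.80 at 24 h, on opposite sides of 0, and BCL2A1 reaches -4.12 at 24 h.

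Without drug, 3 members were called between OCI-AML3 and Molm-14, against 30.2% of all genes. BCL2L11 was higher in OCI-AML3 (log2 difference 1.49 ± 0.13, limma adjusted p = 1.0e-09), and BIK and BMF were lower there (-2.56 ± 0.15 and -1.45 ± 0.06, limma adjusted p = 3.9e-16 and 4.6e-19). MCL1 and BBC3 differed by 0.00 ± 0.04 and 0.03 ± 0.08, with 95% intervals of -0.07 to 0.08 and -0.14 to 0.19. Between 24 h and 2 h, 1 member rose and 4 fell in OCI-AML3, where 22.6% of all genes were called (11.6% higher and 10.9% lower), and 2 rose and 1 fell in Molm-14, where 10.6% were called (7.25% higher and 3.38% lower). With no minimum difference the counts were 8 members in OCI-AML3 and 7 in Molm-14 between the times (77.6% and 68.3% of all genes). They were 5 and 9 members between the responses at 2 h and 24 h (38.7% and 65.4%), and 8 members between the lines in DMSO (82.4%).

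Levels of different genes were compared only after division by length. Per kb of merged exons, OCI-AML3 with DMSO held 92.1 ± 6.40 CPM per kb of BAX, 91.7 ± 2.35 of MCL1, 12.8 ± 0.43 of BCL2 and 1.08 ± 0.14 of BMF (SD, n = 4), and BMF was the lowest of the 10. At 24 h BMF was at 25.7 ± 0.30 CPM per kb there, in place 4, above BCL2 at 4.63 ± 0.15 (SD, n = 3). In Molm-14 BMF moved through place 9 with DMSO, 5 at 2 h and 3 at 24 h, where it stood at 34.6 ± 1.08 CPM per kb (SD, n = 4). The place of BMF depends on the length used, since its median coding transcript is 0.735 kb and its merged exons 4.91 kb: by the median transcript it was in place 1 at 24 h in both lines.

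By Pearson's r over the 23 libraries, with each value taken from the DMSO mean of its line, the genes most like BMF among 12018 searched were HBP1 (0.994), ZBTB22 (0.992) and PRDM1 (0.988). Those most like BBC3 were IER5 (0.981), TNFAIP2 (0.977) and MARCHF9 (0.972), and those most like PMAIP1 were DDX21 (0.989), TLCD3A (0.988) and NUP58 (0.988). BCL2 was most like SRP68 (0.972), GK (0.969) and CLP1 (0.967), MCL1 most like PRNP (0.969), LINC02910 (0.966) and UXS1 (0.965), and BCL2A1 most like RUBCNL (0.968), SPRED2 (0.964) and RIOX2 (0.964). BCL2L11 was most like TUT7 (0.931), VAMP5 (0.928) and HSD17B11 (0.928), and BAX most like CENPB (0.941), B3GALT6 (0.940) and RPUSD1 (0.931). The likeness was weaker for BIK, with PPP2R2D (0.896), PWWP3A (0.895) and GAS2L1 (0.887), and for BCL2L1, with DAPK3 (0.850), CYB5R3 (0.816) and ACD (0.813). The libraries form 6 groups and share their DMSO means, so these values describe shared group patterns.

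The rest of the apoptosis pathway, in 9 lists with 73 measured genes beside the ERK output gene DUSP6, was called mainly at 24 h. Of the 73 genes, 4 rose and 2 fell at 2 h and 12 rose and 10 fell at 24 h in OCI-AML3 (8.22% and 30.1% called, against 6.58% and 35.4% of all genes). In Molm-14, 1 rose and 1 fell at 2 h and 9 rose and 4 fell at 24 h (2.74% and 17.8%, against 7.29% and 17.9% of all genes). The shares were near or below those of all genes at 24 h. The median over the 73 genes was 0.01 and -0.03 in OCI-AML3 and 0.02 and -0.05 in Molm-14 at 2 h and 24 h.

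Within the wider family, BID, a BH3-only protein that caspase-8 cuts into its active form, averaged 80.1 CPM at 24 h and 149.3 CPM with DMSO in OCI-AML3. In Molm-14 its means were 42.0 CPM after 24 h of drug and 69.4 CPM without it. Its log2 differences at 24 h were -0.90 and -0.72 (limma adjusted p = 7.5e-17 and 4.1e-15), below the size threshold. BAK1, the effector beside BAX, averaged 25.9 CPM at 24 h and 41.5 CPM with DMSO in OCI-AML3, with a log2 difference of -0.68 (limma adjusted p = 1.4e-12), while its difference in Molm-14 was -0.37 (limma adjusted p = 1.4e-07). The multidomain relative BCL2L10 rose in OCI-AML3, with means of 0.714 CPM (2 h) and 3.26 CPM (24 h), against 0.134 CPM with DMSO (limma adjusted p = 0.00015 and 5.8e-10). It was also called higher in Molm-14 at 24 h, at 0.228 CPM against 0.0436 CPM with DMSO (limma adjusted p = 0.0043). With DMSO the OCI-AML3 level is a few reads a library, near the prior of the scale. The Molm-14 level with DMSO lies below that prior of 0.105 CPM, so the Molm-14 call rests on very few reads. No fold is given for either line. BNIP3L, a mitophagy receptor with a BH3-like stretch, rose by 1.87 ± 0.05 in Molm-14 at 24 h (limma adjusted p = 6.8e-24), and in OCI-AML3 it was at 168.7 CPM at 24 h, against 93.7 CPM with DMSO, under the size threshold.

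Among the 15 apoptosome and caspase genes, 3 rose and 3 fell in OCI-AML3 at 24 h, and 2 rose and 1 fell in Molm-14 at 24 h. Of all genes, 35.4% and 17.9% were called in these comparisons. CYCS, which encodes the cytochrome c that the effectors release, fell by 2.64 ± 0.05 in OCI-AML3 (limma adjusted p = 1.4e-27) and by 1.41 ± 0.05 in Molm-14 (limma adjusted p = 3.9e-21). AIFM1, a flavoprotein of the mitochondrial intermembrane space, fell by 1.04 ± 0.04 in OCI-AML3 (limma adjusted p = 2.7e-20), and in Molm-14 it was at 65.3 CPM at 24 h, against 104.0 CPM with DMSO, under the size threshold. CASP10, an initiator caspase of the death receptors, already rose at 2 h in OCI-AML3, by 1.08 ± 0.07 (limma adjusted p = 9.0e-14), and at 24 h rose by 2.20 ± 0.08 in OCI-AML3 and by 1.46 ± 0.07 in Molm-14 (limma adjusted p = 1.6e-21 and 1.6e-17). APAF1, the scaffold that cytochrome c assembles, rose in OCI-AML3 by 1.18 ± 0.05 (limma adjusted p = 1.3e-19), and its difference in Molm-14 was 0.94 ± 0.05 (limma adjusted p = 1.2e-17), just under the size threshold. CASP9, the caspase activated on it, rose in Molm-14 by 1.13 ± 0.10 (limma adjusted p = 8.6e-12), and its difference in OCI-AML3 was 0.98 ± 0.11 (limma adjusted p = 7.6e-10), also just under it. CYCS has processed pseudogenes, so its counts can share reads with them.

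Of the 6 measured inhibitor of apoptosis genes, NAIP and CFLAR rose and BIRC5 fell in OCI-AML3 at 24 h, and NAIP rose and BIRC5 fell in Molm-14 at 24 h. The shares of all genes called there were 35.4% and 17.9%. BIRC5, which encodes survivin and is expressed mainly in dividing cells, averaged 59.1 CPM at 24 h and 289.2 CPM with DMSO in OCI-AML3, and 74.2 CPM and 151.5 CPM in Molm-14 (log2 differences -2.29 and -1.03, limma adjusted p = 5.1e-28 and 1.0e-19). NAIP, which also senses bacterial proteins and has near-identical copies in the genome that make its counts uncertain, differed by 2.97 ± 0.08 in OCI-AML3 and 1.14 ± 0.08 in Molm-14 (limma adjusted p = 6.2e-24 and 4.8e-14). CFLAR, which blocks caspase-8, rose by 1.14 ± 0.05 in OCI-AML3 (limma adjusted p = 1.3e-19), and in Molm-14 its difference was 0.69 ± 0.04 (limma adjusted p = 8.4e-15).

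Of the 9 measured death receptor genes, 2 rose in OCI-AML3 and 1 in Molm-14 at 24 h, and 1 fell in OCI-AML3 at 2 h. Among all genes, 18.4% and 11.4% were called higher at 24 h, and 3.35% lower in OCI-AML3 at 2 h. The death ligand TNFSF10, called TRAIL, rose at 24 h in both lines, to 35.6 CPM in OCI-AML3, against 14.2 CPM with DMSO, and to 6.19 CPM in Molm-14, against 1.73 CPM. Its log2 differences were 1.32 ± 0.16 and 1.81 ± 0.14 (limma adjusted p = 4.7e-09 and 1.3e-12). TRADD, an adaptor of the TNF receptor, rose by 1.29 ± 0.10 in OCI-AML3 at 24 h (limma adjusted p = 5.0e-13), and in Molm-14 its difference was 0.69 ± 0.09 (limma adjusted p = 8.9e-08). TNFRSF10A, a receptor for TRAIL, fell by 1.29 ± 0.09 in OCI-AML3 at 2 h (limma adjusted p = 1.6e-13), to 3.38 CPM, against 8.41 CPM with DMSO, and in Molm-14 at 2 h it was at 9.28 CPM, against 18.1 CPM, under the size threshold.

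Of the 7 outer membrane partners, 3 fell in OCI-AML3 at 24 h, where the list's median log2 difference was -0.83 and that of all genes 0.01. There 17.1% of all genes were called lower. VDAC1, the main channel of the outer membrane, fell by 2.14 ± 0.04, and MTCH2, a receptor for activated BID, by 1.78 ± 0.06 (limma adjusted p = 2.5e-28 and 1.9e-21). VDAC3, another channel of that membrane, fell by 1.01 ± 0.05 (limma adjusted p = 8.9e-19). In Molm-14 at 24 h the list's median was -0.44 and VDAC1 averaged 170.3 CPM, against 310.1 CPM with DMSO.

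Of the 9 genes listed as acting, directly or through ERK, on MCL1 or BIM protein, 2 were called at 24 h in OCI-AML3. In that comparison 35.4% of all genes were called. DUSP6, a phosphatase of ERK, fell at 2 h in both lines (-5.31 in OCI-AML3 and -3.96 in Molm-14) and at 24 h in OCI-AML3 (-5.56). TRIM2, a ubiquitin ligase known to act on BIM, fell at 24 h in OCI-AML3 (-1.35). It averaged 0.132 CPM there, against 0.480 CPM with DMSO. These are a few reads a library, near the prior of the scale, so the size of the fall is uncertain.

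Among 16 transcription factors known to act on BCL2 family genes, 4 rose and 2 fell in OCI-AML3 at 24 h, where 35.4% of all genes were called. In Molm-14 at 24 h, 3 rose and 2 fell, where 17.9% were called. FOXO4, of the forkhead family that is known to drive BCL2L11, BBC3 and BMF in other cells, rose in OCI-AML3 by 1.12 ± 0.08 at 2 h and 2.26 ± 0.08 at 24 h, and in Molm-14 by 1.47 ± 0.08 at 24 h (limma adjusted p = 1.9e-13, 4.3e-21 and 7.2e-17). Its relative FOXO1 averaged 8.57 CPM at 24 h and 3.74 CPM with DMSO in OCI-AML3, and 9.90 and 4.48 CPM in Molm-14. For FOXO3 the means were 80.7 and 40.1 CPM in OCI-AML3, and 108.6 and 60.6 CPM in Molm-14, in the same order. JUN, the AP-1 subunit, rose at 2 h in Molm-14, to 26.9 CPM, against 4.85 CPM with DMSO (2.45 ± 0.11, limma adjusted p = 4.5e-18). In OCI-AML3 at 2 h it was at 13.1 CPM, against 17.1 CPM. MYC, known to favour both growth and apoptosis, fell at 2 h in both lines, with log2 differences of -2.37 ± 0.04 in OCI-AML3 and -3.26 ± 0.04 in Molm-14 (limma adjusted p = 4.3e-27 and 4.3e-31), and it was also called lower in OCI-AML3 at 24 h (-2.74 ± 0.05, limma adjusted p = 1.3e-29). E2F1, a cell cycle factor, fell at 24 h in both, with -3.54 ± 0.07 and -1.14 ± 0.07 (limma adjusted p = 2.1e-27 and 1.3e-15). DDIT3, known as CHOP, fell in Molm-14 at 24 h by 1.46 ± 0.08 (limma adjusted p = 8.6e-17). STAT5A, a factor known to act on BCL2L1 and MCL1 in blood cells, rose at both times in OCI-AML3 (1.02 ± 0.11 and 2.84 ± 0.12, limma adjusted p = 2.1e-09 and 7.0e-20). It also rose at 24 h in Molm-14 (1.37 ± 0.11, limma adjusted p = 1.2e-12). These are levels of RNA and say nothing of the activity of the factors.

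**Figure D5:**
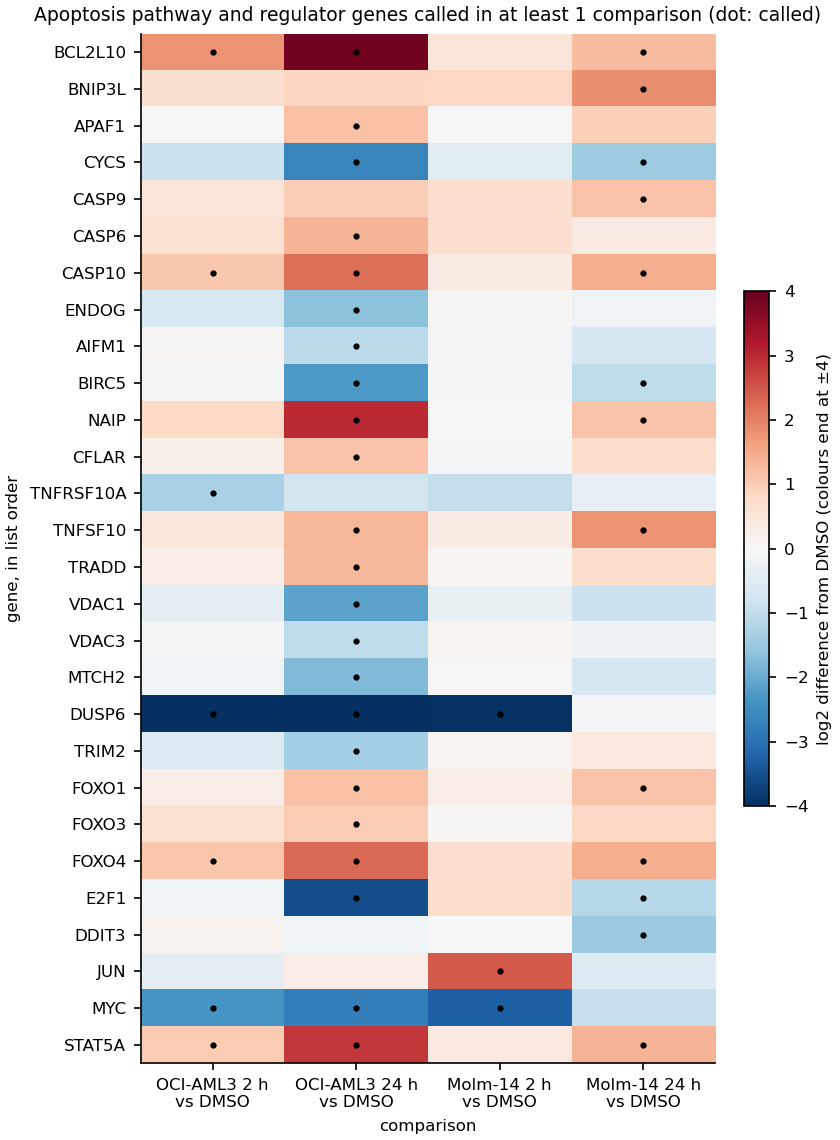
Colours give the log2 difference from DMSO (scale on the right, ending at 4 in either direction) for the 28 genes of the 9 apoptosis lists called in at least 1 of the 4 comparisons, OCI-AML3 at 2 h and 24 h on the left and Molm-14 on the right, and dots mark the called values. Most dots stand in the 24 h columns. CYCS, BIRC5 and E2F1 are lower and BCL2L10, CASP10, NAIP, TNFSF10 and FOXO4 higher at 24 h in both lines. With DMSO BCL2L10 is near the prior of the scale in OCI-AML3 and below it in Molm-14.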

How the data were processed

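RNA was measured in 23 libraries of 2 lines. The deposited values are log2 CPM per gene symbol, made by the authors before deposit. The submitters' processing notes name, with no order, RSEM 1.3.3, STAR 2.7.8a, limma 3.38.3, edgeR 3.24.3, Trimmomatic 0.36 and MultiQC 1.28, and hg38 (GRCh38). Settings, strandedness and any removal of low genes are not stated there.

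From these values CPM was computed as 2 to the power of the value minus the prior of 0.105 CPM, and read equivalents from the spacing of low values, of which 75.4% to 82.5% lay within 0.05 of a whole read. The effective depths of 15.4 to 22.4 M reads limit genes such as BCL2A1 to a few reads per library. Limma 3.58.1 in R 4.3.3 fitted the 6 group means over all 13033 genes (trend and robust moderation), with Benjamini-Hochberg adjustment over all genes in each of 9 comparisons. The fit was tested on simulated data. Positions and lengths come from GENCODE 29.

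The members and gene lists were chosen with earlier results of these data known. The text names all 10 members, from each apoptosis list up to 4 called genes per comparison with DMSO by smallest adjusted p (markers and ERK output genes are given mostly as counts and sums), and the 3 genes most like each member among those with at least 5 CPM in a group. BID, BAK1, FOXO1, FOXO3 and values of a named gene in comparisons where it was not called were added after their values were seen. Alternatives were other moderation, voom on read equivalents, a pseudocount of 1 CPM, a filter at 5 CPM, library totals, median-of-ratios scaling, a replicate block, each line alone, leaving out each library, and no minimum difference.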

Additional observations from a re-analysis of the deposited data

Results flagged for a closer look

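BCL2A1 in the DMSO libraries of OCI-AML3 had a library far from the others of its group: replicate 3 lay at 2.81 CPM and the others at 3.42 to 3.56 CPM, and on the log2 scale its gap to the nearest was 0.8356 of the group's range. It was 1 of 50 pairs of gene and group with 4 libraries examined in this way, and chance marks about 1 in 20. All drug libraries of that line lay below 0.44 CPM.

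The lines differed in the response of 4 genes, each by limma's test of the difference itself (OCI-AML3 minus Molm-14, log2 scale). BBC3 differed by -1.196 at 2 h. BMF differed by 1.023, PMAIP1 by -1.312 and BCL2A1 by -4.121 at 24 h.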

How the results depend on the processing

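Of 32 called member values, 0 changed sign and 6 lost the call in at least 1 of the alternatives that kept the size threshold. BCL2L11 in OCI-AML3 at 24 h was at 0.97 without replicate 4. With log2 of CPM plus 1, the others were BCL2A1 between 24 h and 2 h in Molm-14 (0.95), PMAIP1 (-0.92), BIK (-0.76) and BCL2A1 (-0.34) between those times in OCI-AML3, leaving 2 called members there, and the BMF difference between lines at 24 h (0.89). BIK in OCI-AML3 between 24 h and 2 h was at -0.94 with library totals and -0.97 without OCI-AML3 2 h replicate 3 or 4 or 24 h replicate 1, and the BMF difference at 24 h was at 0.98 to 0.99 without Molm-14 DMSO replicate 2 or OCI-AML3 DMSO replicate 2 or 3.

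The replicate numbers showed no clear pairing of the libraries: the correlation of deviations was above 0.1 in 5 of 22 pairs and ran from -0.353 to 0.257. It was highest for the library of the same number in 7 of the 22 pairs. A low correlation does not exclude pairing. With the replicate block, BIK in OCI-AML3 between 24 h and 2 h was at -0.96 and the BMF difference between lines at 24 h at 1.00 (0.99966), both under the size threshold, and no other member's call was lost.

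With no minimum difference, 8 and 10 members were called in OCI-AML3 at 2 h and 24 h against DMSO, 8 and 8 in Molm-14, 8 in OCI-AML3 and 7 in Molm-14 between the times, 5 and 9 between the lines' responses at 2 h and 24 h, and 8 between the lines in DMSO. The lines' responses at 2 h differed in 2 members with library totals, BMF (1.03) joining BBC3, and in 1 to 2 members when single libraries were left out (2 without Molm-14 DMSO replicate 1 or 4 or OCI-AML3 DMSO replicate 1). Library totals moved the median of all genes by 0.17 in OCI-AML3 at 24 h against DMSO, where the calls became 2907 higher and 1815 lower, against 2392 and 2228, and by 0.10 between 24 h and 2 h there. In Molm-14 at 24 h the calls were 1738 and 629, against 1481 and 856.

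Values near 0 changed sign. With library totals these were BCL2L1 in Molm-14 at 24 h (0.046), BCL2 (0.012) and BCL2L1 (0.043) in OCI-AML3 at 2 h, and BAX (0.034) and BCL2 (0.041) in Molm-14 between 24 h and 2 h. With median-of-ratios scaling they were BCL2L1 in Molm-14 at 24 h (0.0086), BAX (0.0072) and BCL2 (0.015) in Molm-14 between 24 h and 2 h, and BBC3 (-0.074) and MCL1 (-0.096) between the lines in DMSO. Without single libraries, BCL2L1 in OCI-AML3 at 2 h ran from -0.090 to 0.0069, BCL2 in Molm-14 between 24 h and 2 h from -0.082 to 0.017, MCL1 in OCI-AML3 between 24 h and 2 h from -0.0087 to 0.077, and between the lines in DMSO BBC3 ran from -0.045 to 0.086 and MCL1 from -0.0088 to 0.020. The cause was not tested. The BIK difference between the lines' responses at 24 h came past the threshold without OCI-AML3 DMSO replicate 2 (-1.11) or 24 h replicate 2 (-1.02).

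The difference of BH3-only and anti-apoptotic means was 1.285 and 1.96 in OCI-AML3 at 2 h and 24 h and 1.61 and 1.17 in Molm-14 with log2 of CPM plus 1, and 0.84 and 2.04 in OCI-AML3 and 1.68 and 0.88 in Molm-14 with medians of members. Without single members it ran from 0.96 to 2.23 and from 1.60 to 3.45 in OCI-AML3, and from 1.43 to 2.42 and from 0.57 to 1.79 in Molm-14, with the lowest values without BCL2A1 or BMF and the highest without PMAIP1. Without single libraries it ran from 1.60 to 1.71 and from 2.49 to 2.69 in OCI-AML3, and from 1.92 to 2.01 and from 1.21 to 1.26 in Molm-14.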
